A study of Homo sapiens with 10 samples.

Results

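MicroRNA (miRNA) probes for the paralogous miR-193 and miR-365 clusters were followed on single-colour arrays in HuH-7 cells, a long-used line from a human liver carcinoma. The members are 7 probes picked by their names out of 2565 miRNA probes: hsa-miR-193b-3p, hsa-miR-193b-5p, hsa-miR-193a-3p, hsa-miR-193a-5p, the probe named hsa-miR-365a-3p, hsa-miR-365b-3p, which serves both genes, hsa-miR-365a-5p and hsa-miR-365b-5p. Lenvatinib cultures were kept for 96 h with 1 µM lenvatinib, an oral inhibitor of VEGF, FGF and other receptor tyrosine kinases, and control cultures were kept for 96 h without it. Both groups grew in low-glucose medium with fetal bovine serum and antibiotics, and each has 5 arrays, numbered 1 to 5. HuH-7 is 1 line, and whether 2 arrays of the same group stem from different dishes is not labelled. The extraction label names serum, while all other labels name the cells. In RNA from whole cultures, fewer cells and less RNA per cell cannot be told apart. The members were proposed with the lenvatinib against control contrast already known, so their changes are given as a description, with standard errors (SE) and intervals but without p-values.

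MiRNAs are short RNAs cut from a hairpin precursor, whose left arm gives the 5p and right arm the 3p strand, and they repress mRNAs that match their seed, bases 2 to 8. The miR-193 and miR-365 hairpins lie side by side at a pair of places in the human genome, which arose by duplication. MiR-193a-3p and miR-193b-3p are known as growth-restraining miRNAs that repress cyclin D1, MCL1 and the urokinase gene PLAU, and miR-365-3p also represses cyclin D1. The miR-193b and miR-365 pair is best known from brown fat, where it favours the brown over the muscle fate in mouse cells.

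The mature sequences are shown because they tell which strands of the paralogues differ and at which bases. They are from RefSeq (GRCh38.p14), 5′ to 3′, with the seed in capitals, and all 8 mature names of the 7 members were matched.
miR-193b-3p: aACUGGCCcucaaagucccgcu
miR-193a-3p: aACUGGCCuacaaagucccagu
miR-193b-5p: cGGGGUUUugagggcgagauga
miR-193a-5p: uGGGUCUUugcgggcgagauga
miR-365a-3p and miR-365b-3p: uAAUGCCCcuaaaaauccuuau
miR-365a-5p: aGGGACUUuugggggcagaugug
miR-365b-5p: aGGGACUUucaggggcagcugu

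The 2 miR-193 3p strands share their seed and are the same at 18 of 22 positions. Counted from 1 at the 5′ end and with the miR-193b base first, they differ by C9U, U10A, G20A and C21G. The miR-193 5p strands are also the same at 18 of 22 positions, but C1U, G5U, U6C and A11C put part of the difference inside the seed. The miR-365 3p strands are identical at all 22 positions, so their shared probe sums the RNA of both genes. The miR-365 5p strands share their seed and differ at 3 of the 22 positions compared, by U10C, G11A and A19C, with the miR-365a base first. In the RefSeq table, no mature miRNA outside the members has the seed of the miR-193 3p, miR-365 3p or miR-365 5p strands. How far the probes of near-identical paralogues share signal was not tested.

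The b copy of miR-193 and the a copy of miR-365 lie on chromosome 16, both on the forward strand, at chr16:14303967-14304049 (MIR193B) and chr16:14309285-14309371 (MIR365A). Both hairpins fall within the long non-coding gene MIR193BHG (chr16:14301381-14331062), 2586 and 7904 bases after its start. The other copies lie on chromosome 17, at chr17:31559996-31560083 (MIR193A) and chr17:31575411-31575521 (MIR365B). MIR365B falls within MIR365BHG (chr17:31571142-31575659), while MIR193A starts 11146 bases before the start of that gene. The starts of the hairpins are 5318 bases apart on chromosome 16 and 15415 bases apart on chromosome 17. The 2 miR-193 hairpins, with both mature strands in capitals, show how the probes for the 5p and 3p strands read different arms of 1 precursor.
MIR193B: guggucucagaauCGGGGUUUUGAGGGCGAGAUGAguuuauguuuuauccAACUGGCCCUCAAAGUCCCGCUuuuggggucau
MIR193A: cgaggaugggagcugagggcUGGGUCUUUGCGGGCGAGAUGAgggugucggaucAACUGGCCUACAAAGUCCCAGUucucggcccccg

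Some properties of the arrays moved with the groups. The blank spots, which hold no probe, read 67.97 ± 9.88 intensity units on lenvatinib arrays and 33.3 ± 1.51 on control arrays (SD, n = 5 each, exact two-sided permutation test, p = 0.00794, the lower limit for 5 arrays a side). A scan or session effect and the treatment therefore cannot be told apart, and levels are given after quantile normalization on the log2 scale, relative to the bulk of the probes, unless another scale is named. Lenvatinib replicate 5 stood apart, with the highest blank level at 85.5 and correlations of 0.938 to 0.947 with the other lenvatinib arrays, which correlated at 0.967 to 0.981 among themselves. Before any scaling, the median background-subtracted intensity of the probes detected on all arrays was 24.5 to 34.7 on lenvatinib arrays and 10.1 to 11.8 on control arrays. Unscaled units were thus higher on lenvatinib arrays for the bulk of the probes. MiR-122-5p, the defining hepatocyte miRNA, was detected on all 10 arrays. It had 7246 to 9778 background-subtracted units on lenvatinib arrays and 2815 to 3424 on control arrays, also before any scaling. MiR-885-5p, also a hepatocyte miRNA, had 151.9 to 191.8 such units on lenvatinib arrays and 116.8 to 146.5 on control arrays. After quantile normalization the log2 change was 0.35 for miR-122-5p and -1.22 for miR-885-5p, and of the 5 hepatocyte markers 3 were called higher and 1 lower, where 12.1% and 9.36% of all tested probes were. The 6 blood and serum markers together reached 8.07 to 70.2 such units on lenvatinib arrays and 16.6 to 23.5 on control arrays, with miR-223-3p detected on 0 lenvatinib and 2 control arrays and miR-144-3p on 2 lenvatinib and 0 control arrays. The 5 stromal and endothelial markers reached 323.6 to 558.1 units on lenvatinib arrays and 133.6 to 162.1 on control arrays, and the 3 muscle markers 0 to 20.7 and 5.28 to 12.0. None of the tested markers of these other cell types was called, and their part in the members' values was not tested.

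All 7 members were detected on all 10 arrays and none had a spot marked bad, so all 7 entered the fit of 1346 probes. With lenvatinib, 2 members, miR-193b-3p and miR-365a-5p, were called higher in limma's fit, with an adjusted p under the threshold of 0.05, and 0 were called lower, where 12.1% of all tested probes were called higher and 9.36% lower. Both called members are encoded on chromosome 16, as is miR-193b-5p, which was not called. The 3 probes for strands encoded only on chromosome 17 were not called. The median change of the 7 members was 0.23 and that of all tested probes was -0.03, both as log2 lenvatinib minus control. The same 2 members were those whose lenvatinib values all lay above the control values, where 11.1% of all tested probes did so, 8.84% lay fully below and 20.0% did either. Since the members were chosen with this contrast known, nothing is read from these counts.

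**Figure D1:**
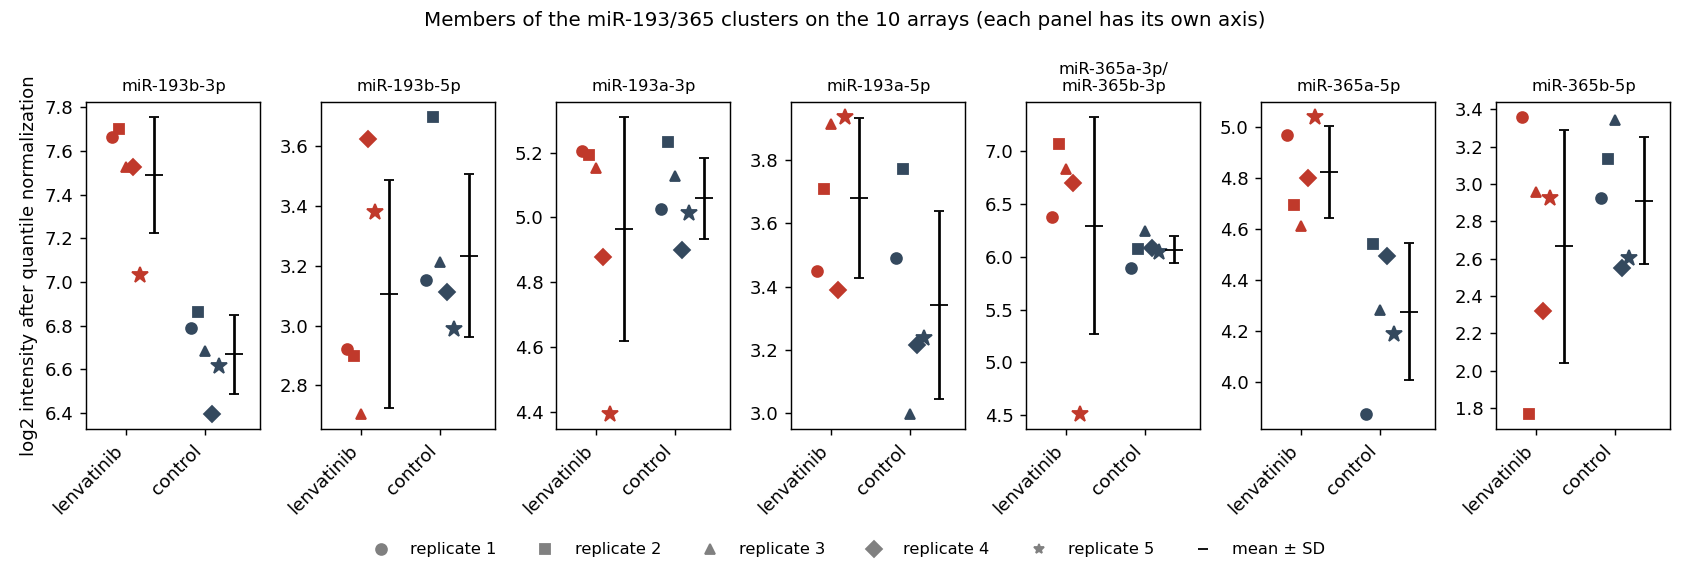
Log2 intensity after quantile normalization (y axis, a separate range for each panel) of the 7 members on the 5 lenvatinib arrays (red, left) and the 5 control arrays (dark, right), with a marker shape for each replicate and the mean ± SD beside each group. Lenvatinib replicate 5 (star) is the lowest lenvatinib array for all 3 probes of 3p strands, and the groups are fully separate only for miR-193b-3p and miR-365a-5p.

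MiR-193b-3p, a repressor of cyclin D1, was 1.77-fold higher with lenvatinib. Its log2 levels were 7.67, 7.70, 7.53, 7.53 and 7.03 on lenvatinib replicates 1 to 5, against 6.79, 6.86, 6.68, 6.39 and 6.61 on control replicates 1 to 5. Every lenvatinib array thus lay above every control array, with lenvatinib replicate 5 closest to the controls. The log2 change was 0.82 ± 0.16 (SE, 95% interval 0.48 to 1.17). Without lenvatinib replicate 5 it was 0.96. Before scaling, its background-subtracted intensity was 303.2 ± 44.7 on lenvatinib arrays and 60.2 ± 6.69 on control arrays (SD, n = 5 each). The bulk of the probes also read higher on lenvatinib arrays at that stage. On the authors' globally normalized scale the groups met, since lenvatinib replicate 5 had 257.8 units against 213.3 to 280.2 on control arrays, although the change stayed upward at 0.98 on the log2 scale. The call held in all 27 alternative settings, over which the change ran from 0.57 with normexp background correction to 2.33 with no scaling. These settings reuse the same arrays and are not independent tests, and with no scaling all 7 members were called higher.

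The paralogue miR-193a-3p, which carries the same seed, showed no separation of the groups. Its log2 levels were 5.20, 5.19, 5.15, 4.88 and 4.39 on lenvatinib replicates 1 to 5, against 5.03, 5.23, 5.13, 4.90 and 5.01 on control replicates 1 to 5. Lenvatinib replicates 1 to 3 fell within the range of the control arrays, replicate 4 just under it, and replicate 5 clearly below it. The log2 change was -0.09 ± 0.17 (SE, 95% interval -0.47 to 0.28). Its sign turned without lenvatinib replicate 5 (0.047), with median scaling (0.0045), with scaling to spike controls (0.13) and with the authors' global normalization (0.018).

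The 3p paralogues were also compared within each array, where any factor that scales a whole array drops out. The log2 difference of background-subtracted intensity, miR-193b-3p minus miR-193a-3p, was 2.54, 2.54, 2.36, 2.66 and 2.50 on lenvatinib replicates 1 to 5, against 1.76, 1.52, 1.60, 1.34 and 1.54 on control replicates 1 to 5. Lenvatinib replicate 5, low for each of these probes, lay here among the other lenvatinib arrays. The mean difference was 2.52 ± 0.11 on lenvatinib arrays and 1.55 ± 0.15 on control arrays (SD, n = 5 each), an unequal change of 0.97 ± 0.084 (SE), or 0.92 after quantile normalization. With neither background correction nor normalization it was 0.82 ± 0.091 (SE), again without overlap of the groups. On that raw scale lenvatinib replicate 5 was the lowest lenvatinib array, at 1.31 against 1.58 to 1.74 on the others. With quantile normalization and no background correction the unequal change was 0.64. Such a difference between probes is not a ratio of molecules, because probes differ in how brightly they report the same amount. Of all pairs among the probes detected and not marked bad on every array, 26.0% had non-overlapping groups for the within-array difference of background-subtracted values. That share was not computed for raw values, where the blank level does not drop out of the difference.

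**Figure D2:**
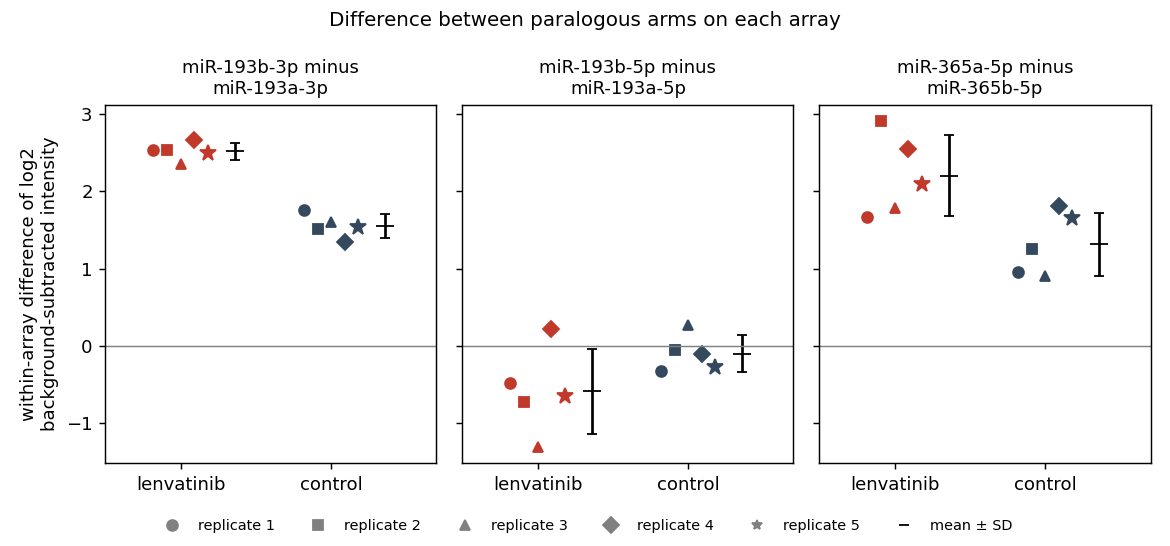
Within-array difference of log2 background-subtracted intensity (y axis) between paralogous strands on the 5 lenvatinib arrays (red, left) and the 5 control arrays (dark, right), with the mean ± SD beside each group. For miR-193b-3p minus miR-193a-3p the lenvatinib arrays lie between 2.36 and 2.66 and the control arrays between 1.34 and 1.76, while the groups overlap for the other pairs.

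The 5p strands of miR-193 sat near the blank level. Raw brightness of miR-193b-5p was 1.15 to 1.30 times the blank level on lenvatinib arrays and 1.14 to 1.25 times on control arrays, and that of miR-193a-5p was 1.25 to 1.36 and 1.14 to 1.26 times. MiR-193b-5p, cut from the same hairpin as miR-193b-3p, had log2 levels of 2.92, 2.90, 2.70, 3.62 and 3.38 on lenvatinib replicates 1 to 5, against 3.15, 3.70, 3.21, 3.11 and 2.99 on control replicates 1 to 5. The groups overlapped on this normalized scale, and its log2 change was -0.13 ± 0.20 (SE, 95% interval -0.57 to 0.32). MiR-193a-5p had log2 levels of 3.45, 3.71, 3.91, 3.39 and 3.94 on lenvatinib replicates 1 to 5, against 3.49, 3.77, 3.00, 3.21 and 3.24 on control replicates 1 to 5. Its log2 change was 0.34 ± 0.18 (SE, 95% interval -0.05 to 0.73), with overlapping groups. The within-array difference of miR-193b-5p minus miR-193a-5p averaged -0.59 ± 0.55 on lenvatinib arrays and -0.098 ± 0.24 on control arrays (SD, n = 5 each), overlapping. Its change between the groups was -0.49 ± 0.27 (SE), opposite in sign to that of the 3p paralogues.

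The shared probe of miR-365a-3p and miR-365b-3p spread widely on lenvatinib arrays and little on control arrays. Its log2 levels were 6.37, 7.07, 6.84, 6.70 and 4.51 on lenvatinib replicates 1 to 5, against 5.89, 6.07, 6.24, 6.08 and 6.05 on control replicates 1 to 5. Lenvatinib replicates 1 to 4 all lay above all control arrays, and lenvatinib replicate 5 lay below all of them. The log2 change over all arrays was 0.23 ± 0.40 (SE, 95% interval -0.65 to 1.10), which was not called, with an SD of 1.03 on lenvatinib arrays and 0.12 on control arrays. Without lenvatinib replicate 5 the change was 0.67 and was called, and 3 members were then called higher. Over the fits that left out 1 array, 130 to 184 of the 1346 tested probes were called higher. The array left out here is the lowest one for this probe, so nothing is read from that count. Down-weighting by array quality also led to a call, at 0.63. Leaving out lenvatinib replicate 2, 3 or 4 in its place gave 0.03, 0.10 and 0.13.

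The low value of lenvatinib replicate 5 was set beside base composition, a comparison chosen after the values were seen. The miR-365 3p strand has a GC content of 31.8%, against 50% for miR-193a-3p and 56.5% to 59.1% for the other 5 members. On lenvatinib replicate 5 the miR-365 3p probe was at -2.24 on the log2 scale relative to the mean of lenvatinib replicates 1 to 4, the second lowest of 750 probes with a RefSeq sequence that were detected and unmarked on all arrays. MiR-193a-3p was at -0.71 and miR-193b-3p at -0.57, while all 5p strands were at 0.27 to 0.34. Among the 79 probes with a GC content under 45%, 24.1% were lower by over 1 on that array, against 3.73% of the 671 with 45% or more. The median deviation was -0.87 for 12 probes with a GC content under 35% and 0.30 for 248 with 65% or more. Across probes of this array, which share its hybridization and scan, the Pearson correlation of GC content and deviation was 0.24, against -0.05 for control replicate 5 set against the other control arrays. The part of base composition in the level of the miR-365 3p probe was not tested.

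**Figure D3:**
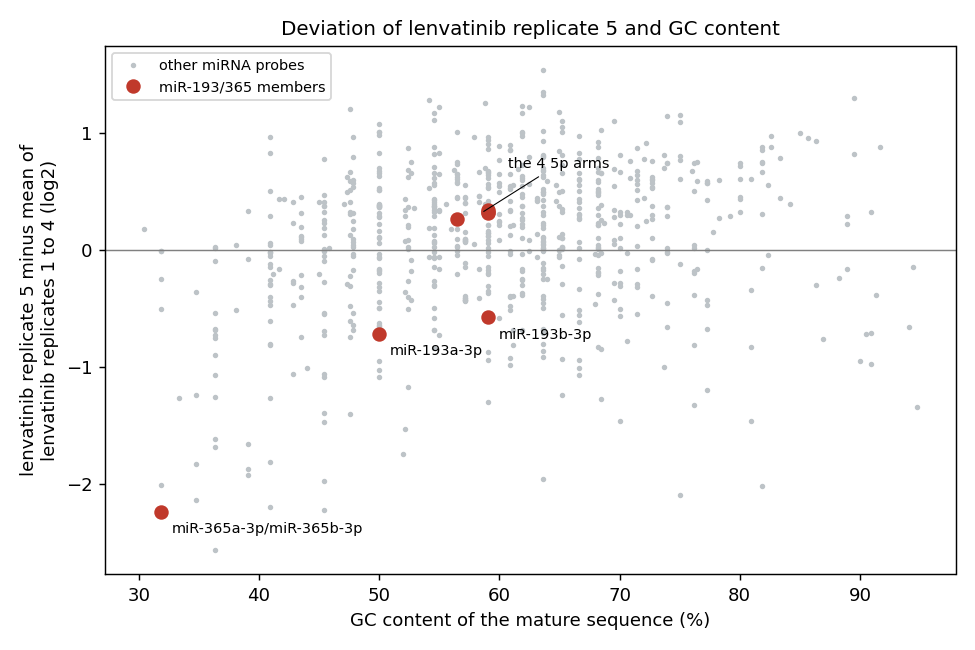
Log2 level on lenvatinib replicate 5 minus the mean of lenvatinib replicates 1 to 4 (y axis) against the GC content of the mature sequence in percent (x axis) for 750 miRNA probes (grey), with the 7 members in red. The miR-365 3p probe lies at 31.8% GC and -2.24, the other 3p strands lie below 0, and all 5p strands lie at 0.27 to 0.34.

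MiR-365a-5p, the 5p strand from the chromosome 16 hairpin, was 1.46-fold higher with lenvatinib. Its log2 levels were 4.97, 4.69, 4.61, 4.80 and 5.04 on lenvatinib replicates 1 to 5, against 3.87, 4.54, 4.28, 4.49 and 4.19 on control replicates 1 to 5. The groups did not overlap, but lenvatinib replicate 3 lay just above control replicate 2. On the authors' globally normalized scale they overlapped, at 62.0 to 79.5 units on lenvatinib arrays and 36.8 to 64.8 on control arrays. The log2 change was 0.55 ± 0.16 (SE, 95% interval 0.20 to 0.89). The call was lost without lenvatinib replicate 1 (0.50) or 4 (0.54), without control replicate 1 (0.45), 3 (0.55) or 5 (0.52), after scaling to the 75th percentile (0.42), with undetected spots left missing (0.45) and with a replicate block (0.55). Lenvatinib replicate 5 was the highest array here, and without it the change was 0.50. With normexp correction the change was 0.17 and was called. Raw brightness was 1.60 to 1.75 times the blank level on lenvatinib arrays and 1.27 to 1.50 times on control arrays.

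MiR-365b-5p, the strand from chromosome 17, was close to the blank level, at 1.08 to 1.23 times the blank level on lenvatinib arrays and 1.10 to 1.19 times on control arrays. Its log2 levels were 3.36, 1.77, 2.96, 2.32 and 2.93 on lenvatinib replicates 1 to 5, against 2.93, 3.14, 3.34, 2.55 and 2.61 on control replicates 1 to 5. The groups overlapped widely and the log2 change was -0.25 ± 0.28 (SE, 95% interval -0.87 to 0.38). Within arrays, miR-365a-5p minus miR-365b-5p was 2.20 ± 0.52 on lenvatinib arrays and 1.31 ± 0.41 on control arrays (SD, n = 5 each), with overlapping groups and an unequal change of 0.89 ± 0.30 (SE). After quantile normalization this change was 0.79, but only 0.19 with normexp correction and 0.21 with quantile normalization and no background correction. That change had the same sign as the one between the miR-193 3p paralogues. The change of miR-193b-5p minus miR-193a-5p had the opposite sign, at -0.49 ± 0.27 (SE). Of the 3 pairs of paralogous strands, only the miR-193 3p pair separated the groups on the background-subtracted scale. Since 26.0% of all pairs of probes detected and not marked bad on every array separated the groups there, nothing is read from that count. With no background correction, the miR-365 5p pair separated them too, at 0.45 to 0.63 on lenvatinib arrays and 0.15 to 0.39 on control arrays. The blank level does not drop out of such raw differences. The share of all probe pairs separated on that scale was not computed, so nothing is read from this separation.

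**Figure D4:**
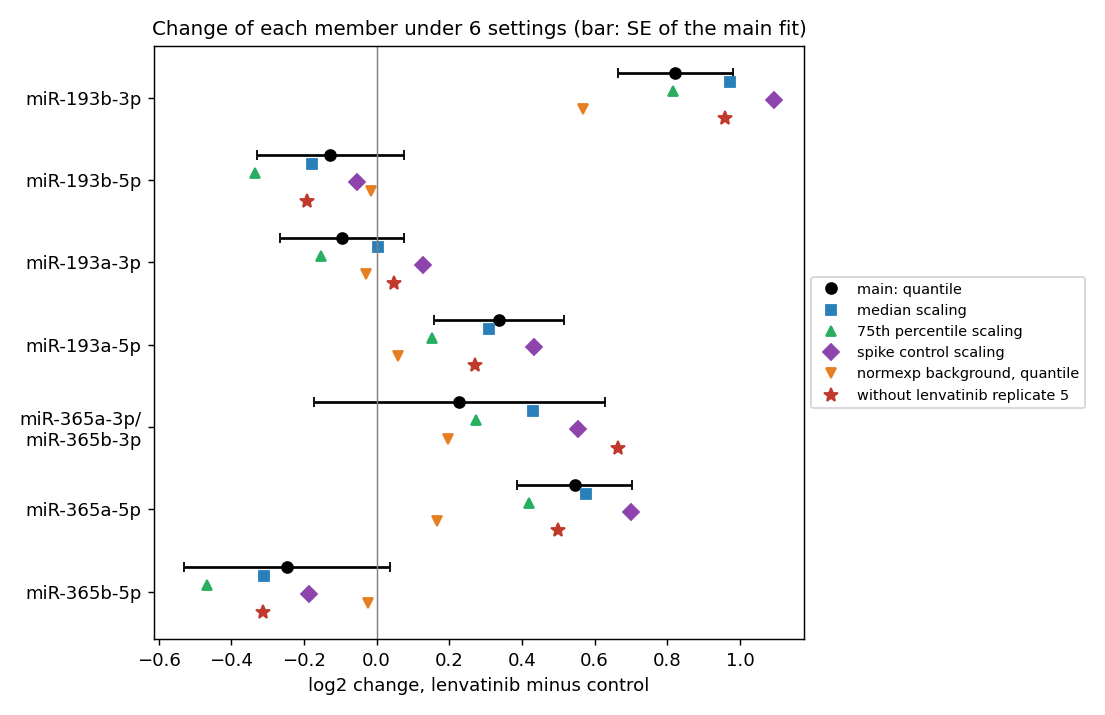
Log2 change, lenvatinib minus control (x axis), of each member under quantile normalization (black, with its SE), under 3 other scalings, with normexp background correction and without lenvatinib replicate 5. MiR-193b-3p stays between 0.57 and 1.09 in these settings, miR-193a-3p changes sign, and the miR-365 3p probe moves from 0.23 to 0.67 when lenvatinib replicate 5 is left out.

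The profiles most like those of the members were taken as the smallest root mean square difference of log2 levels, centred per probe, over the 10 arrays and among 857 other probes detected and not marked bad on all of them. For miR-193b-3p these were miR-215-5p, at 0.12, and miR-4485-3p, at 0.15, where the median probe was at 0.56. MiR-126-3p, an endothelial miRNA, and miR-4291 lay closest to miR-193a-3p, at 0.098 and 0.11. The miR-365 3p probe was nearest to miR-374b-5p and miR-3653-3p, both at 0.26, and each of these had its lowest lenvatinib value on replicate 5, at 4.51 and 4.62. MiR-365a-5p was nearest to miR-6828-5p (0.14) and miR-638 (0.15). The closest profiles were miR-7851-3p (0.18) and miR-342-3p (0.24) for miR-193b-5p, miR-6820-5p (0.19) and miR-6769a-3p (0.20) for miR-193a-5p, and miR-4750-5p and miR-6878-3p (both 0.26) for miR-365b-5p.

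Other miRNAs known to share a target or process with the members were set beside all tested probes. Of 14 other miRNAs known to repress cyclin D1, all tested, 3 were called higher and 2 lower, where 12.1% and 9.36% of all tested probes were, with a median log2 change of 0.05 beside -0.03 for all tested probes. MiR-16-5p, which also represses BCL2, changed by 0.83 ± 0.10 (SE). MiR-424-5p changed by 0.54 and miR-503-5p, from the same X-linked cluster, by 0.52, while miR-19a-3p, of the miR-17-92a cluster, changed by -1.30 ± 0.24 (SE). The other one called lower, miR-497-5p at -0.60, was named after its values were seen.

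Of 15 tested miRNAs known to promote or restrain brown and beige fat differentiation, the setting from which the miR-193b and miR-365 pair is best known, 0 were called higher and 3 lower, beside 12.1% and 9.36% of all tested probes, with a median log2 change of -0.13 beside -0.03. MiR-378a-3p, which lies in an intron of the gene for PGC-1beta, changed by -0.87 ± 0.14 (SE). MiR-106b-5p changed by -0.74 and miR-455-5p by -0.50, and miR-455-3p, at -0.40, was not called. The list holds promoters and repressors of that fate.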

How the data were processed

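The authors' files hold linear intensity, per the file headers, as raw, background-subtracted (empty for undetected spots) and globally normalized values. From the values, the deposited subtracted intensity is raw brightness minus 1 level per array. A deposited table of the series holds quantile-normalized intensity of 803 probes. RNA was labelled with Cy5 for 3D-Gene arrays, per the labels' protocols. Scanner and software: not given in these sources.

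Here the subtracted intensity was used. Spots marked NG were left out, undetected spots were set to their array's lowest detected value, and log2 values were quantile normalized. Probes detected on at least 5 of 10 arrays were fitted with limma 3.58.1 (R 4.3.3, lmFit and eBayes, two-sided, Benjamini-Hochberg over 1346 probes, threshold 0.05), with no block. The fit was tested on simulated data, a check of the calculation that does not bear on the blank level difference between the groups. The 27 alternatives covered background, scaling, filter, floor, NG spots, variance model, replicate block and each array left out. Members and lists were chosen with earlier results of these data known. All members, seed sharers, the 2 closest profiles and up to 4 miRNAs of a list by p were named. Another list of miRNAs was described by the same rule and is not reported here. Deviations from the group means correlated at 0.18, 0.14, 0.22 and 0.14 between the lenvatinib and control arrays of replicate numbers 1 to 4. For each of these lenvatinib arrays the control array of the same number was the best match. For number 5 the correlation was 0.02 and control replicate 4 matched best. Arrays were not paired in the reported fit because number 5 stayed under 0.1, so a factor shared by arrays of 1 number is not modelled there. The number of arrays limits the precision, and p-values measure only the spread between arrays, which may be technical.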

Additional observations from a re-analysis of the deposited data

Results flagged for a closer look

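Dixon's 95% criterion, which chance meets in about 1 in 20 sets, was applied on the log2 quantile scale. In 2 of the 14 sets of 5 arrays (7 members, 2 groups), 1 array lay far from the others by it. The 14 sets reuse the same arrays and are not independent, so their count is not weighed against that rate. For the probe of miR-365a-3p and miR-365b-3p, lenvatinib replicate 5 was the low array, and its gap to the next one was 0.728 of the range of the lenvatinib arrays. For miR-193b-3p it was again lenvatinib replicate 5, with a gap of 0.740 of the range. The critical value for 5 samples is 0.71. Without that array the changes were 0.67 for the miR-365 3p probe and 0.96 for miR-193b-3p, both log2 lenvatinib minus control.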

How the results depend on the processing

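Members called higher numbered 2 in the reported fit, and 1 after scaling to the 75th percentile, with undetected spots left missing and with the replicate block, 7 with no scaling, and 1 to 3 on leaving out 1 array. Members called lower numbered 0 in all 27 alternatives. In the replicate block fit the lost call was that of miR-365a-5p. Since 4 of 5 replicate numbers had correlated deviations over 0.1, that call depends on whether arrays are paired by number. Of all tested probes, 163 were called higher and 126 lower. With no scaling these were 1287 and 2 and the median change of all probes was 1.30. There were 92 higher with undetected spots left missing. Scaling to the 75th percentile gave 111 higher and 238 lower (median change -0.21), scaling to spike controls 197 and 83, and leaving out 1 array 130 to 184 higher and 90 to 149 lower. The split of higher and lower calls therefore depends on the scaling. The sign of miR-193a-3p turned with no scaling (1.36), spike controls (0.13), the median (0.0045), the authors' global normalization (0.018), array weights (0.022) and without lenvatinib replicate 5, with a range of -0.15 to 0.047 on leaving out 1 array. With no scaling it also turned for miR-193b-5p (1.18) and miR-365b-5p (1.05). The cause was not tested. The unequal change of miR-193b-3p and miR-193a-3p ran from 0.60 with normexp to 0.97, above 0 in all 27. Median, 75th percentile, spike control, global and no scaling all gave that 0.97, because a factor on a whole array drops out. Several others, such as the filters and the replicate block, cannot move the change from the 0.92 of the reported fit. The 27 are therefore not separate tests of it. Raw brightness close to the blank level limits miR-193b-5p, miR-193a-5p and miR-365b-5p.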

Other observations

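Within arrays, miR-193b-3p minus miR-193b-5p, the strands of 1 hairpin, was 4.47 ± 0.66 on lenvatinib arrays and 3.32 ± 0.37 on control arrays as a log2 difference of background-subtracted intensity (SD, n = 5 each), with overlapping groups. On the raw scale the groups did not overlap for this pair, at 1.56 to 2.42 on lenvatinib arrays and 1.13 to 1.38 on control arrays. They did not overlap after quantile normalization either, at 3.65 to 4.82 on lenvatinib arrays and 3.16 to 3.63 on control arrays. The share of all probe pairs separated on these scales was not computed, and miR-193b-5p sat near the blank level, so nothing is read from these separations. MiR-193a-3p minus miR-193a-5p was 1.37 ± 0.58 on lenvatinib arrays and 1.67 ± 0.33 on control arrays. That unequal change, -0.30 ± 0.30 (SE), was -0.059 without lenvatinib replicate 5 and 0.026 on the raw scale. MiR-193b-3p minus miR-365a-5p, which come from the same host gene, was 2.71 ± 0.46 on lenvatinib arrays and 2.31 ± 0.45 on control arrays, with an unequal change of 0.40 ± 0.29 (SE) that was 0.59 without lenvatinib replicate 5 and 0.67 on the raw scale. Over the 750 probes with a RefSeq sequence, GC content and the log2 change between the groups had a Pearson correlation of 0.35, and 0.31 without lenvatinib replicate 5. Median changes ran from -0.55 for the 12 probes under 35% GC to 0.19 for the 248 with 65% or more. The miR-365 3p probe, at 31.8% GC, changed by 0.23, and the part of base composition in the changes was not tested.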
